A study of Rattus norvegicus with 52 samples.

Results

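Among 52 DiI-labelled cells cut from arterial aneurysms of 3 rats, the genes of 4 related families were examined: the matrix metalloproteinases (MMP), the ADAM proteases, the ADAMTS proteases and the tissue inhibitors of metalloproteinases (TIMP). The members were all rows of the count table whose symbol starts with Mmp, Adam, Adamts or Timp followed by a digit, which gave 69 genes of 22081: 21 MMP, 25 ADAM, 19 ADAMTS and 4 TIMP genes. Symbols of these families without such a row were not analysed here. The animals were male Sprague Dawley rats aged 7 weeks. In each, the cut left common carotid artery had been joined end to side to the right one to form a new bifurcation, the left renal artery had been tied, and the feed was salted to 8% with sodium chloride. It also held 3-aminopropionitrile at 0.12%, which blocks lysyl oxidase and with it the cross-linking of elastin and collagen fibres. The red dye DiI had been injected into a vein in nanoparticles, and 3 days later single labelled cells were dissected with a laser. Rat 1 gave 5 cells, rat 2 gave 23 and rat 3 gave 24, all in 1 group, and no artery without an aneurysm was analysed here.

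MMPs are zinc enzymes, secreted or held at the membrane, that together can cut most components of the extracellular matrix. ADAM proteins sit in the membrane and shed the outer parts of other membrane proteins, and some of them have lost the protease activity. ADAMTS enzymes are secreted, carry thrombospondin repeats and cut proteoglycans, procollagens and other large matrix proteins, while TIMPs bind the active site of MMPs and of some ADAM and ADAMTS enzymes. In a thinning vessel wall, macrophages are known as a source of MMPs, and the balance of proteases and TIMPs is a standard theme of aneurysm research.

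Within the MMP family, Mmp10 was found in more cells than any other gene, and it lies in a cluster of neighbouring MMP genes on chromosome 8 whose other members were found in 0 to 10 cells. Promoter windows of Mmp10 and of 3 neighbours found in at most 1 cell are given because the genes share promoter motifs but not their detection. They run from 250 bases before to 50 bases after the annotated start, are from RefSeq on assembly GRCr8, and are printed 5′ to 3′ on the plus strand. Capitals mark TGANTCA, the letters bound by AP-1 factors, and TATAAA, the TATA box, each searched on both strands. TGANTCA reads the same on both strands, and the TATAAA matches of opposite strands overlap near the 5′ end of the Mmp10 window.
Mmp10, chr8:12974457-12974756: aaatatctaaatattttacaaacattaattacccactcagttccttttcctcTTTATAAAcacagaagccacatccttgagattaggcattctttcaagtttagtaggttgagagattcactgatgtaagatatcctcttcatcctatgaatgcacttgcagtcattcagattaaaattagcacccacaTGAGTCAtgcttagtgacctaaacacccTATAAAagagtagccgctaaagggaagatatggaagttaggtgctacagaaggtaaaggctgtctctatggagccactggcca
Mmp1, chr8:12943203-12943502: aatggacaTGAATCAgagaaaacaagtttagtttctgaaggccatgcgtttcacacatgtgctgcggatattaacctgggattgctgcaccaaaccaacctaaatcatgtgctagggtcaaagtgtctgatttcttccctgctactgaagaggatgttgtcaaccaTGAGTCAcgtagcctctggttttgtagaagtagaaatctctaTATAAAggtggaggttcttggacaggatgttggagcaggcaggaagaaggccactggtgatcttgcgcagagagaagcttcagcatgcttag
Mmp3, chr8:12925031-12925330: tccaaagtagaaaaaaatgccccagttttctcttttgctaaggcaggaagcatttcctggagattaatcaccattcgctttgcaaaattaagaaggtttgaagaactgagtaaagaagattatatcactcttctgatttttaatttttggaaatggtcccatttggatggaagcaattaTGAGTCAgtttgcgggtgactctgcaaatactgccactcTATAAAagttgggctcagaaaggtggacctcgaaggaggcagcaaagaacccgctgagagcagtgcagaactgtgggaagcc
Mmp12, chr8:12866402-12866701: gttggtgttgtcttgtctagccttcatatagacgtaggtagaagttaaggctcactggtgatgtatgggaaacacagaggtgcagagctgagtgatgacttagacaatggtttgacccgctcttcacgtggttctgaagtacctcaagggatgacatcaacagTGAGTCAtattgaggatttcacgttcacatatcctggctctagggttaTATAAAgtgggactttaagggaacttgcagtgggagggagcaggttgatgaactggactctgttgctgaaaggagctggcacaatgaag
TGAGTCA began 61 bases before the start in Mmp10, 84 in Mmp1, 71 in Mmp3 and 87 in Mmp12, and Mmp1 also held TGAATCA at 242. TATAAA began 33, 42, 32 and 39 bases before the start in the same order of genes. A match is a description of these letters, not a shown binding site. The neighbours shown are among the least detected of the cluster. Mmp20, whose window also held TGANTCA and TATAAA, was found in 10 cells.

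The libraries were shallow, with 1538 to 84848 counts per cell and a median of 15068. The median was 18261 counts in rat 1, 11390 in rat 2 and 21840 in rat 3. The labels call all cells macrophages. Of 18 macrophage markers, at least 1 reached 5 counts in 21 of 52 cells and none did in the other 31, and the summed count of the list had a median of 5 per cell and ran from 0 to 1403. Fibroblast markers reached 5 counts in 19 cells, smooth muscle markers in 18, T and NK cell markers in 17, endothelial markers in 14 and neutrophil markers in 4. Single genes carried much of this: Col1a1 reached 5 counts in 15 cells, Acta2 in 12, Prf1 in 16 and Kdr in 11. Of the other T and NK cell markers only Nkg7 reached 5 counts, in 1 cell. The values below are those of labelled cells and not of cells typed by their genes. Longer transcripts can yield more counts, and transcript lengths were not used here, so the number of cells with a count is no measure of one gene's level against another's.

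Members were detected somewhat more widely than all genes up to 5 cells and about as widely at 10 and 20 cells. A gene was called detected in a cell at 1 or more counts. A cell held 13.8% ± 4.97 of the 69 members, against 12.6% ± 3.88 of all 22081 genes (SD, n = 3 rats, cells averaged within each rat first). At least 1 cell held a count for 66 members (95.7%), against 84% of all genes. In at least 5 cells, 40 members (58.0%) were found, against 43% of all genes. In at least 10 cells, 16 members (23.2%) were found, against 20.7% of all genes. In at least 20 cells, 5 members (7.25%) were found, against 6.95%. No member reached 26 cells, a number that 4.16% of all genes reached. Members had a median of 6 cells, and all genes a median of 4.

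**Figure D1:**
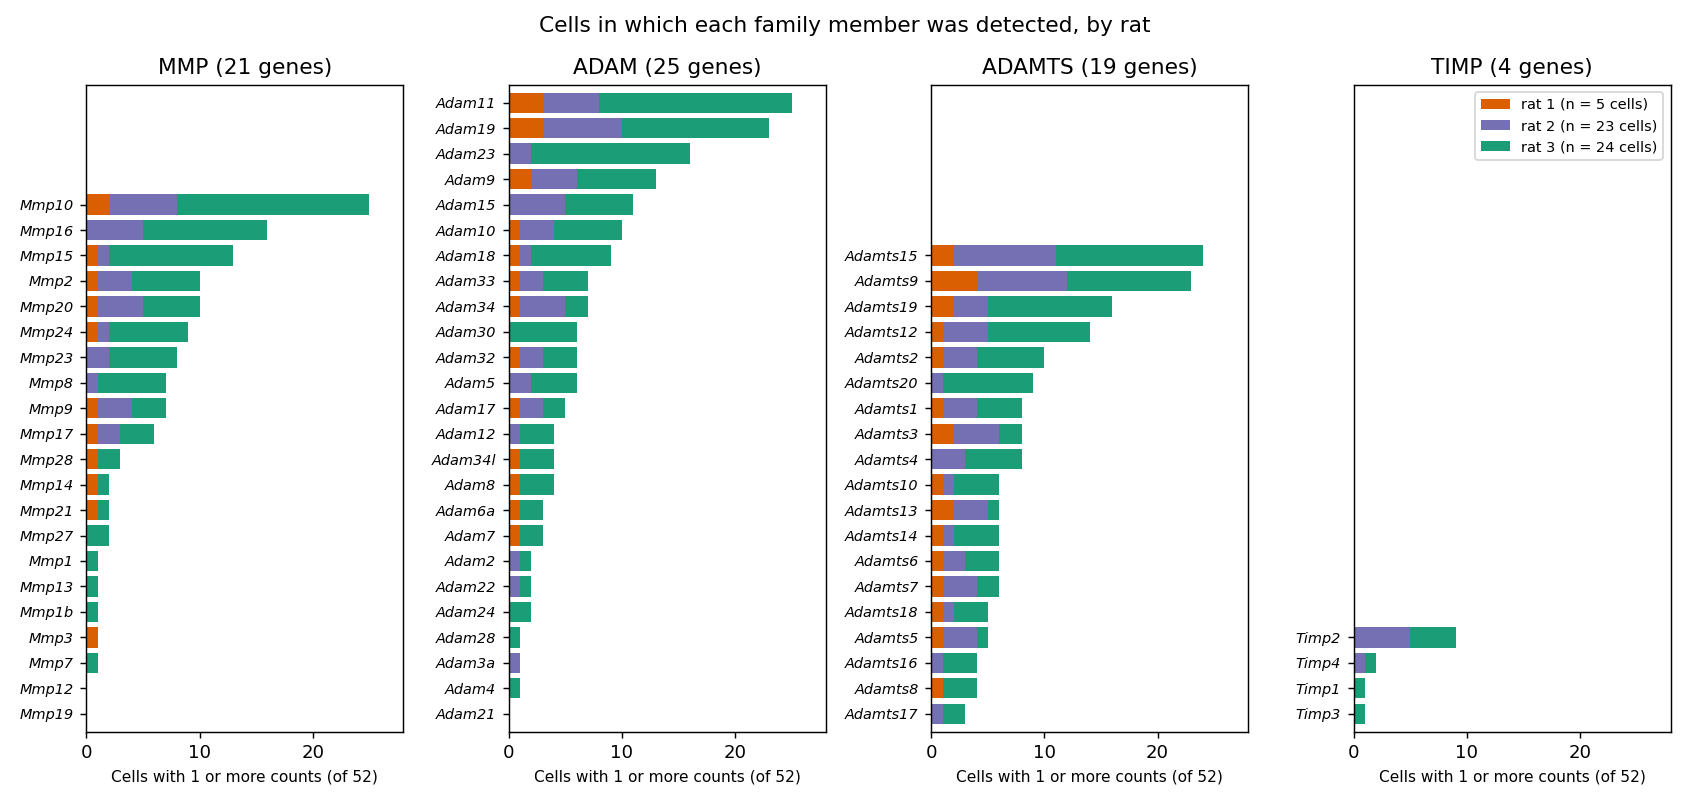
Number of cells (of 52) with 1 or more counts of each member, in 1 panel per family, with the bar split by rat. Mmp10 and Adam11 reach 25 cells, while Mmp12, Mmp19 and Adam21 have no bar and Timp1 and Timp3 have 1 cell each.

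The families differed in the share of members found per cell. The ADAMTS family stood at 18.8% ± 5.68, the ADAM family at 13.4% ± 5.50, the MMP family at 11.4% ± 5.53 and the TIMP family at 4.60% ± 4.01 (SD, n = 3 rats). Rat by rat, ADAMTS genes stood at 23.2%, 12.4% and 20.8% in rats 1, 2 and 3, and MMP genes at 11.4%, 5.80% and 16.9%. The ADAMTS share was above the MMP share by 7.42 ± 3.95 percentage points and above the ADAM share by 5.38 ± 3.16 points, in 3 of 3 rats each (SD, n = 3 rats). It was above the TIMP share by 14.2 ± 8.68 points in 3 of 3 rats. The MMP share was above the TIMP share by 6.76 ± 6.55 points in 2 of 3 rats, with -0.725 points in rat 2. No test was made of these scores, since the members were chosen as families and earlier results of these data were known. At a threshold of 5 counts the families stood in another order, with 2.22% ± 1.72 of ADAMTS, 2.09% ± 0.945 of MMP, 1.43% ± 1.67 of TIMP and 1.25% ± 0.992 of ADAM members per cell (SD, n = 3 rats), against 1.99% ± 0.785 of all genes. Among members found in at least 3 cells, the ADAMTS share lay -0.0831 points from the MMP share, and the ADAM share -0.954 points from it. That filter selects on the detection being compared. It raised the MMP share from 11.4% to 18.9% and left the ADAMTS share at 18.8%, since it removed no ADAMTS gene.

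**Figure D2:**
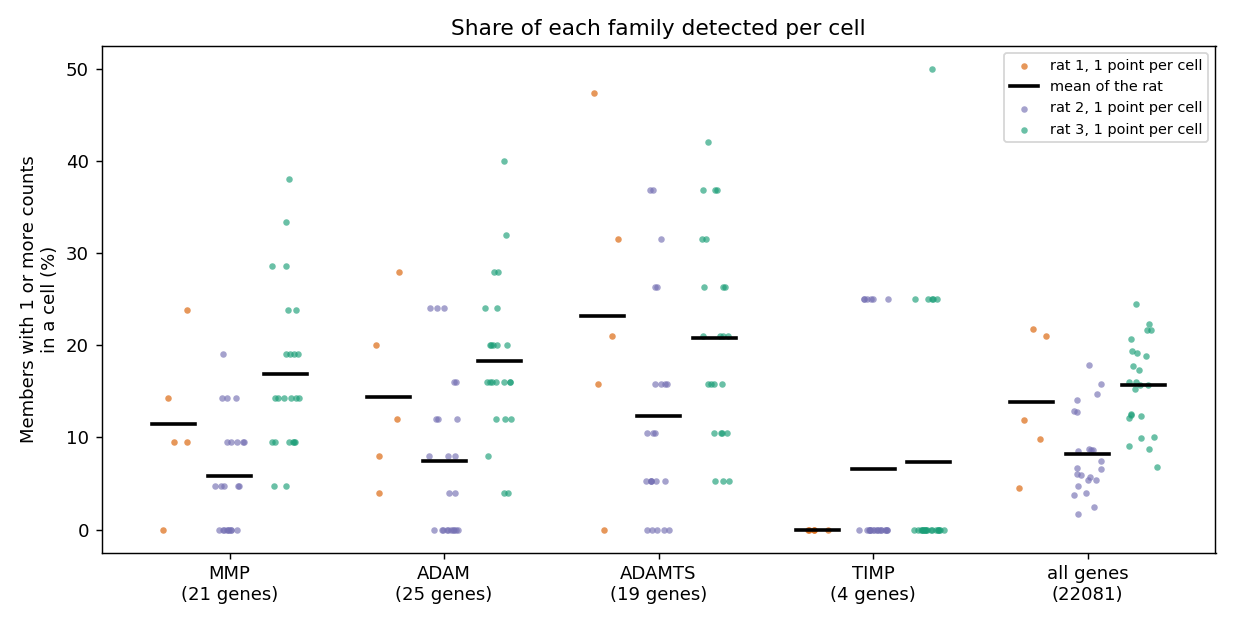
Share of each family's members with 1 or more counts in a cell (%), with 1 point per cell, colours for rats and black bars for the mean of each rat, and all 22081 genes at the right. Rat 2 has the lowest mean of the 3 rats for MMP, ADAM, ADAMTS and all genes, while the TIMP mean of rat 1 is 0.

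Among the stromelysins and the matrilysin, MMPs that cut many non-collagen matrix proteins, 120 of 125 counts were those of Mmp10. This gene, which encodes stromelysin 2, had counts in 25 of 52 cells (48.1%), with an exact binomial 95% interval of 34.0 to 62.4% for counting error only. Counts in rat 1 ran from 0 to 2 with a median of 0, in rat 2 from 0 to 12 with a median of 0, and in rat 3 from 0 to 10 with a median of 2.5. Rat 3 held Mmp10 in 17 of 24 cells, rat 2 in 6 of 23 and rat 1 in 2 of 5, so it was found in all 3 rats, most often in the deepest. It was the member that most often reached a count above the lowest values: 24 of its 25 cells had 2 or more counts and 12 had 5 or more. Most of its values above 0 were even numbers, and the cause was not tested. Mmp10 was the only one of the 69 members with 5 or more counts in at least 10 cells, a rule that 2.02% of all genes met, and also the only one with 5 or more in at least 5 cells, against 4.03% of all genes. Thinned to 10181 counts per cell, it was expected in 46.9% of the 39 cells that were deep enough. The 48.1% above is of all 52 cells, so these shares do not show the effect of thinning. Stromelysin 1 (Mmp3) was found in 1 cell with 3 counts and matrilysin (Mmp7) in 1 cell with 2 counts. Mmp10 and Mmp3 are close copies of each other, so reads that match both could be assigned to either, and how the deposited counts treated them is not given in the sources used here.

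Detection changed from gene to gene along the cluster. In the RefSeq gene table of assembly GRCr8, 10 of the 21 MMP genes follow each other on chromosome 8 in the order Mmp7, Mmp20, Mmp27, Mmp8, Mmp10, Mmp1, Mmp3, Mmp1b, Mmp12 and Mmp13, with 0 other protein-coding genes between them. On one side of Mmp10, the neutrophil collagenase Mmp8 was found in 7 cells, 6 of them in rat 3, with at most 2 counts. On the other, the interstitial collagenase Mmp1 was found in 1 cell. Mmp20, the enamel protease of teeth, had counts in 10 cells, with 21 in rat 2 cell 8 and at most 8 elsewhere. Mmp27 was found in 2 cells, with 80 counts in rat 3 cell 34 and 1 count in the other. In rat 3 cell 34, 1 of 18 macrophage markers (Lyz2 44) reached 5 counts. So did 1 of 9 T and NK cell markers (Prf1 14) and 1 of 9 fibroblast markers (Fbln1 5). Of the 10 promoter windows, 7 held both motifs, among them those of Mmp10, Mmp12, Mmp13 and Mmp20. Over all 33469 windows of the table, TGANTCA was in 7.33%, TATAAA in 14.2% and both in 1.36%. Genes with both motifs ran from 0 cells (Mmp12) to 25 cells (Mmp10) in these libraries. Of the 69 members, 45 had a promoter window, 9 of them with TGANTCA and 15 with TATAAA.

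**Figure D3:**
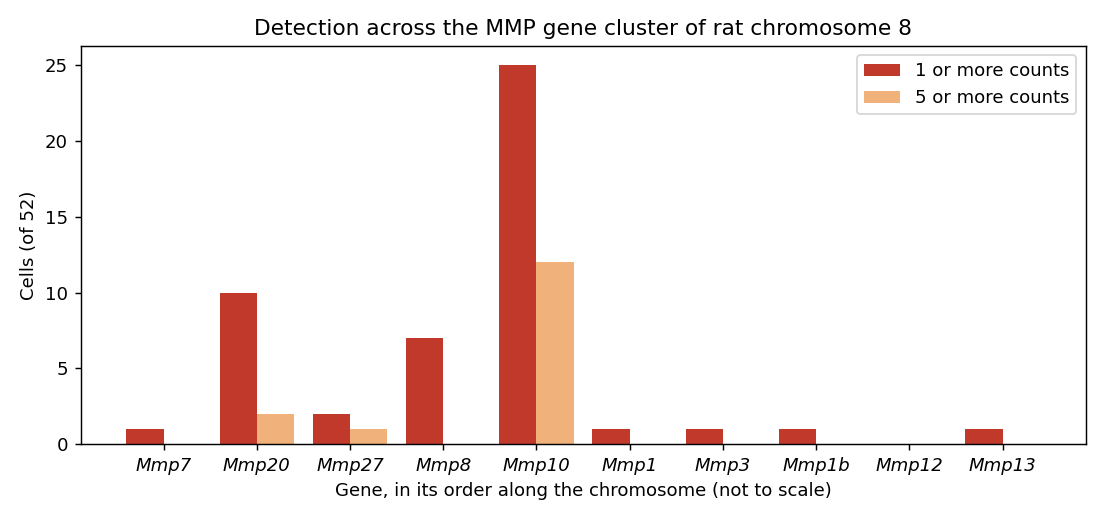
Number of cells (of 52) with 1 or more counts (red) and 5 or more counts (orange) for the 10 MMP genes of the chromosome 8 cluster, in their order along the chromosome and not to scale. Mmp10 stands at 25 and 12 cells between neighbours at 7 and 1 cells.

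Of the collagenases, which cut the triple helix of fibrillar collagen, Mmp8 was found in 7 cells and the others in 1 cell each. All genes had a median of 4 cells. Mmp13 had 1 count in 1 cell, Mmp1b 1 count in 1 cell and Mmp1 2 counts in 1 cell. None of the 4 collagenase genes reached 5 counts in a cell, a level that 27.4% of all genes reached. Macrophage elastase (Mmp12), an elastin-cutting enzyme typical of macrophages, had no count in any of the 52 cells. At this number of cells, up to 5.77% could still have a count, and the share of expressing cells is not bounded by it. Mmp19 was also found in 0 cells, with the same limit.

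The gelatinases cut denatured collagen and basement membrane collagen. Mmp2 was found in 10 cells, with counts of 81 in rat 2 cell 20, 50 in rat 2 cell 14, 5 in rat 1 cell 4 and at most 4 elsewhere. Those first 2 cells held most of its 150 counts, and the other 8 lay near the detection limit. The same 2 cells were rich in fibroblast markers. Rat 2 cell 20 held 398 Col1a1, 66 Col3a1 and 15 Dcn counts, with 6 of 9 fibroblast markers at 5 or more. Rat 2 cell 14 held 356 Col1a1 and 215 Col3a1 counts, with 4 of 9 markers at 5 or more. Their summed fibroblast counts were 504 and 587, where the whole set of cells ran from 0 to 713. Of 18 macrophage markers, 1 reached 5 counts in cell 20 (C1qc, 113) and 3 did in cell 14 (Lyz2 23, Spi1 16, Cybb 7). In cell 14, 1 endothelial marker (Nos3, 17) and 1 T and NK cell marker (Prf1, 5) also reached 5 counts. The part of the marker lists in the Mmp2 result was not tested. Fibroblast marker counts were higher still in rat 3 cell 33 (713) and rat 3 cell 45 (593), where Mmp2 had 4 and 2 counts.

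Mmp9, the gelatinase of myeloid cells, was found in 7 cells, with 7 counts in rat 1 cell 5 and at most 2 in each of the others. Detection of Mmp2 exceeded that of Mmp9 by 4.17 ± 7.22 percentage points of cells (SD, n = 3 rats), with 0, 0 and 12.5 points in rats 1, 2 and 3, so that the difference was 0 without rat 3. An exact 2-sided sign-flip permutation test over the 3 rats gave p = 1 (adjusted p = 1 over 5 pairs of genes), and the smallest p that 3 rats allow is 0.25, so no pair could pass 0.05.

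Membrane-type MMPs, which act at the cell surface, were found in up to 16 cells. Mmp16 was found in 16 cells and Mmp15 in 13, with at most 3 and 4 counts. Only 2 and 3 of these cells had 2 or more counts, and 11 each were in rat 3. Mmp24 had counts in 9 cells, at most 9 in any, and Mmp17 in 6. Mmp14, the activator of proMMP2 at the cell surface, was found in 2 cells with 1 and 2 counts. Among the other MMPs, Mmp23 was found in 8 cells with 10 counts in all, Mmp28 in 3 cells with 4 and Mmp21 in 2 cells with 4.

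In the ADAM family, Adam11 and Adam19 were found in more cells than the other members. Adam11, a brain ADAM without protease activity, was found in 25 cells (48.1%) with counts of 10 and 8 in rat 1 cells 4 and 5 and at most 5 elsewhere. In 16 of its 25 cells it had a single count. Rat 3 held Adam11 in 17 of 24 cells, rat 2 in 5 of 23 and rat 1 in 3 of 5. Adam23, of the same kind, was found in 16 cells, 14 of them in rat 3, with at most 4 counts. Adam19, a protease known for cutting neuregulin, was found in 23 cells, with 18 counts in rat 2 cell 14, 6 in rat 3 cell 46 and at most 4 elsewhere. Detection in rats 1, 2 and 3 was 60%, 30.4% and 54.2% of cells.

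Adam9, a widely expressed sheddase, was found in 13 cells with at most 4 counts and Adam10, the main sheddase of Notch receptors, in 10 cells with 17 counts in rat 2 cell 15 and at most 2 elsewhere. Adam17, which sheds tumour necrosis factor and ligands of the EGF receptor, was found in 5 cells, with 140 counts in rat 1 cell 5 and at most 2 in the others. Its total of 146 counts thus rested on 1 cell, and those 140 counts were 0.348% of that cell's counts. In rat 1 cell 5, 2 of 18 macrophage markers (Itgam 16, Adgre1 5), 1 of 8 neutrophil markers (Csf3r 27), 1 of 10 smooth muscle markers (Cnn1 22) and 1 of 9 endothelial markers (Kdr 5) reached 5 counts. Detection of Adam10 exceeded that of Adam17 by 7.00 ± 8.65 points (SD, n = 3 rats), with an exact permutation p = 0.5 and an adjusted p = 1. That direction turned when 2 counts were required (-2.56 points), and without rat 3 it was 2.17 points. Adam15, an ADAM with an RGD integrin-binding sequence in human, was found in 11 cells, with 71 counts in rat 3 cell 39, 8 in rat 2 cells 14 and 28 and at most 4 elsewhere. Rat 3 cell 39 had the highest summed count of macrophage markers (1403), with 6 of 18 at 5 or more counts, among them C1qa (579) and Csf1r (192). The endothelial marker Kdr (6) and the T and NK cell marker Prf1 (5) also reached 5 counts there. Adam8 was found in 4 cells with 2 counts each, Adam12 in 4 cells with up to 4 counts, Adam33 in 7 with up to 4 and Adam28 in 1 with 2. Adam22, a neuronal ADAM like Adam11, was found in 2 cells with 3 and 2 counts.

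ADAM genes known mainly from the testis and epididymis in mouse were found in these arterial cells too, at low counts. Of 13 such genes, 12 were found in at least 1 cell, near the 84% of all genes. Adam18 was found in 9 cells, Adam34 in 7 and Adam30, Adam32 and Adam5 in 6 each. All 6 cells with Adam30 were in rat 3. Adam34l was found in 4 cells, Adam6a and Adam7 in 3, Adam2 and Adam24 in 2, Adam3a and Adam4 in 1, and Adam21 in 0 of 52, which allows up to 5.77%. Adam34 and Adam34l are close copies, so their counts are uncertain. A cell held 7.83% ± 3.66 of them, against 17.5% ± 5.11 of the 9 proteolytic ADAMs of other tissues (SD, n = 3 rats) and 12.6% ± 3.88 of all genes. Among the 13, Adam30 alone reached 5 counts, with 6 in rat 3 cell 46, while 4 of the 9 and 27.4% of all genes did. The number of cells for Adam17 (5) and Adam8 (4) was no higher than for Adam30, Adam32 and Adam5 (6 each). These role groups were set with the values known, so the difference is a description.

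**Figure D4:**
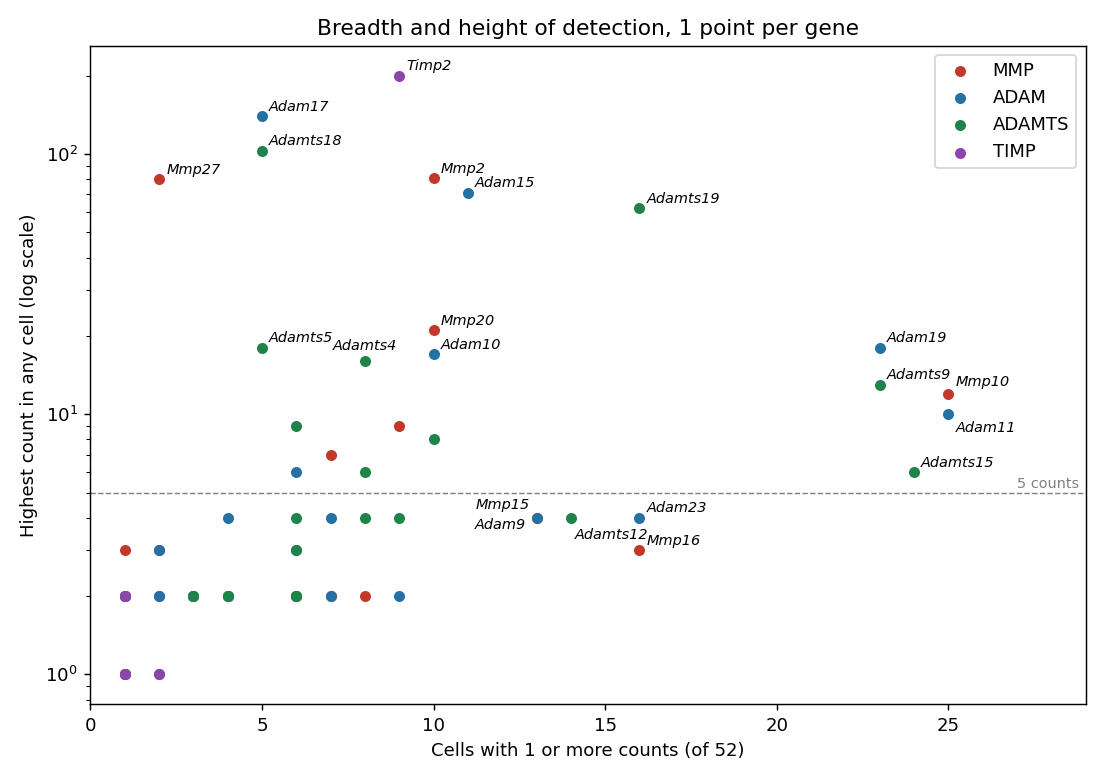
Number of cells with 1 or more counts (x axis, of 52) against the highest count in any cell (y axis, log scale) for the 66 detected members, coloured by family, with some points hidden behind others at the lowest values. Mmp10, Adam11, Adam19, Adamts9 and Adamts15 are wide but stay at 18 counts or fewer, while Timp2, Adam17, Adamts18, Mmp2, Mmp27, Adam15 and Adamts19 have at least 50 counts in a cell.

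The ADAMTS family had the largest share of members found in at least 5 cells, with 16 of 19 (84.2%), against 13 of 25 ADAM genes (52%), 10 of 21 MMP genes (47.6%), 1 of 4 TIMP genes (25%) and 43% of all genes. Without rat 3, 15 of all 69 members were found in at least 5 cells, against 40 with it. Of the 7 ADAMTS genes for proteoglycan-cutting enzymes, the median was 8 cells and the range 4 to 24. Adamts15, which cuts aggrecan and versican, was found in 24 cells, with counts from 0 to 4 in rat 1, 0 to 6 in rat 2 and 0 to 6 in rat 3. Adamts9, a versican-cutting enzyme, was found in 23 cells, with 13 counts in rat 1 cell 4 and at most 4 elsewhere. The inflammation-linked aggrecanases were narrower. Adamts4 was found in 8 cells, with 16 counts in rat 2 cell 20, and Adamts5 in 5 cells, with 18 counts in that cell and 1 in each of the other 4. Rat 2 cell 20 was thus the highest cell for Mmp2, Adamts4 and Adamts5, and the first of the fibroblast-marker cells named above. Adamts1 had counts in 8 cells, at most 6 in any, Adamts20 in 9 and Adamts8 in 4.

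Procollagen propeptidases remove the amino-terminal propeptide so that collagen can form fibrils. Adamts2 had counts in 10 cells, at most 8 in any, Adamts3 in 8 and Adamts14 in 6 with up to 4 each. Among the others, Adamts12 was found in 14 cells with at most 4 counts. Adamts19 was found in 16 cells, with 62 counts in rat 2 cell 8 and at most 4 elsewhere. In rat 2 cell 8, 2 of 18 macrophage markers (Cd163 6, Tyrobp 5) and 1 of 9 fibroblast markers (Fbln1 5) reached 5 counts. Adamts18 was found in 5 cells, with 103 counts in rat 2 cell 12, 30 in rat 3 cell 30, 8 in rat 1 cell 2 and at most 2 in the other 2, so that each rat had a cell with at least 8. In rat 2 cell 12 no macrophage marker had a count, and 1 T and NK cell marker (Prf1, 35) and 1 endothelial marker (Erg, 17) reached 5. Adamts13, which cuts von Willebrand factor, had counts in 6 cells, at most 9 in any. Adamts6, Adamts7 and Adamts10 were found in 6 cells each, Adamts16 in 4 and Adamts17 in 3, with at most 3 counts in any cell.

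TIMP genes had the lowest share per cell at 1 count averaged over rats, though not in rat 2 (6.52%, against 5.80% for MMP genes) nor at 5 counts. Timp1, Timp3 and Timp4 had at most 2 counts in any cell. Timp2 was found in 9 cells (17.3%, exact binomial 95% interval 8.23 to 30.3). It had 200 counts in rat 2 cell 27, 14 in rat 2 cell 13, 12 in rat 3 cell 39, 8 in rat 2 cell 20 and at most 4 in the other 5, and 0 in all 5 cells of rat 1. Of its 242 counts, 82.6% lay in rat 2 cell 27, where they were 1.32% of that cell's counts. In that cell 2 of 9 fibroblast markers (Col3a1 226, Postn 5) and 3 of 18 macrophage markers (Tyrobp 36, Lyz2 23, Cybb 5) reached 5 counts, while Col1a1 and Dcn had 2 each. Rat 2 cell 13 and rat 3 cell 39 each had 6 of 18 macrophage markers at 5 or more counts. In rat 2 cell 13, 1 smooth muscle, 1 fibroblast, 1 endothelial and 1 neutrophil marker also reached 5 counts. Kdr (6) and Prf1 (5) did so in rat 3 cell 39. Timp1, the TIMP that is induced by inflammation, was found in 1 cell with 2 counts, Timp3, which binds to the matrix, in 1 cell with 1 count, and Timp4 in 2 cells with 1 count each.

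Detection of Timp2 exceeded that of Timp1 by 11.4 ± 10.9 points (SD, n = 3 rats), with 0, 21.7 and 12.5 points in rats 1, 2 and 3 (exact permutation p = 0.5, adjusted p = 1). Timp3 and Timp1 did not differ in any rat, each being found in 1 cell of rat 3. Detection of Mmp14 lay -4.75 ± 21.9 points from that of Timp2 (SD, n = 3 rats), with 20 points in rat 1, -21.7 in rat 2 and -12.5 in rat 3 (exact permutation p = 0.75, adjusted p = 1). Without rat 2 it was 3.75 points, in the other direction. Mmp2 and Timp2 had counts together in 2 cells, of 10 cells with Mmp2 and 9 with Timp2.

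**Figure D5:**
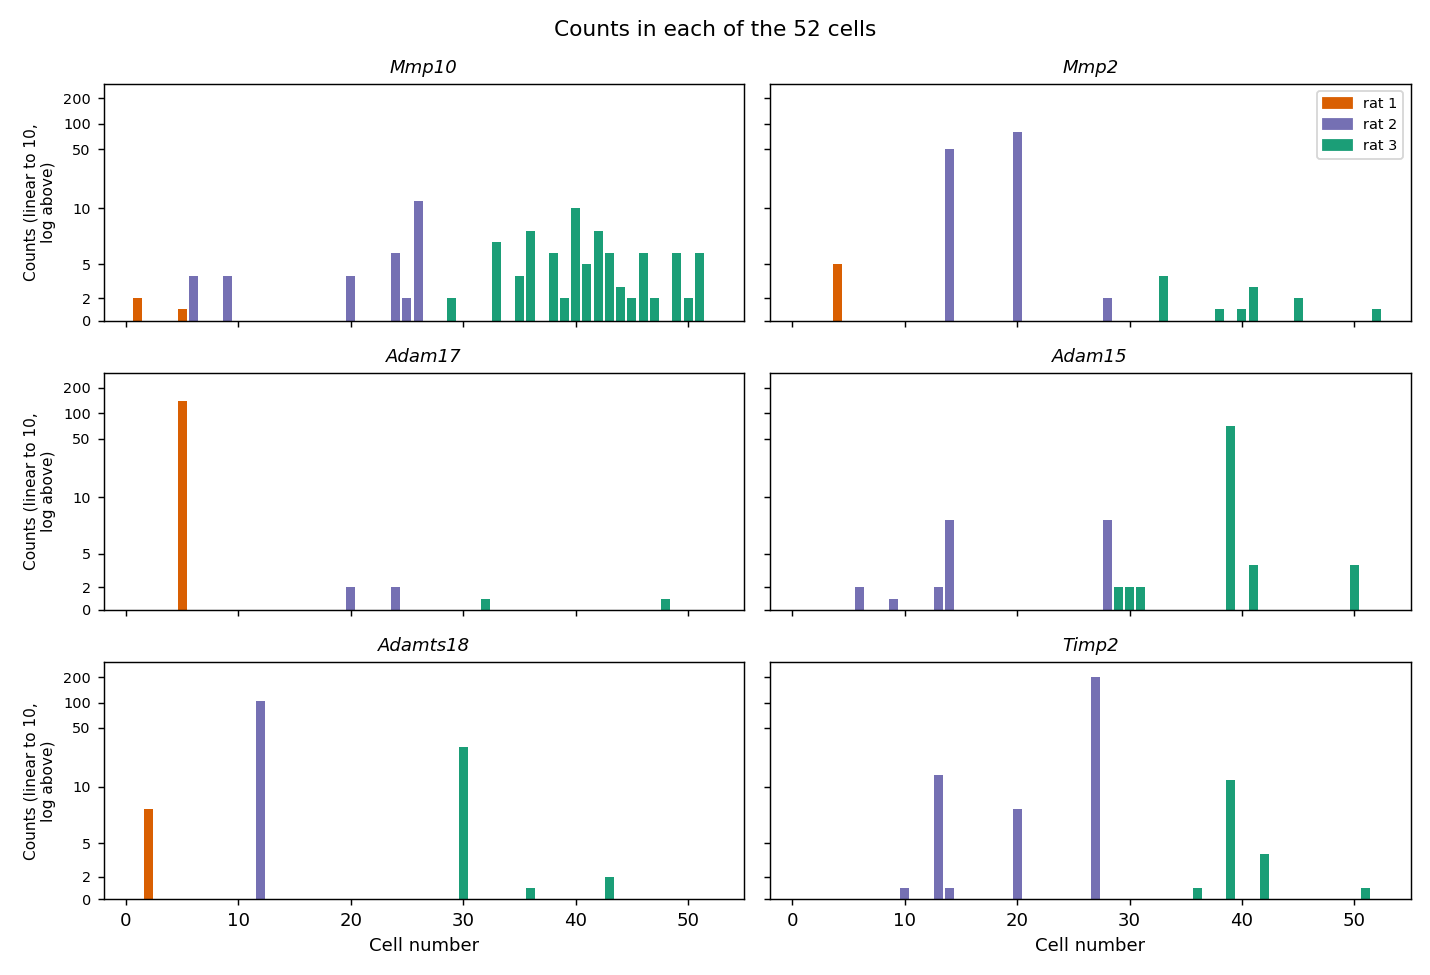
Counts of 6 members in each of the 52 cells, in order of cell number and coloured by rat, on an axis that is linear up to 10 and logarithmic above. Mmp10 is spread over 25 cells at 1 to 12 counts, while Adam17 and Timp2 have most of their counts in 1 cell, at 140 and 200.

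Across the families, low values were the rule and a few high values held much of the total. Of 480 values above 0, 369 (76.9%) were 1 or 2 counts, against 73.2% of all such values in the table. Members had 223 values of 1, 146 of 2, 28 of 3 and 33 of 4, and 4 was more frequent than 3, while the whole table had 9873 values of 3 and 7427 of 4. The cause was not tested. The 69 genes together had 1909 counts, and 8 values of 50 or more, each in a different cell, held 787 of them (41.2%). They belonged to 7 genes (10.1% of members), and 4.84% of all genes had such a value. At least 5 counts in 1 cell were reached by 22 members (31.9%), against 27.4% of all genes: 9 ADAMTS, 6 ADAM, 6 MMP and 1 TIMP gene. Of 35 members with 10 or more counts, 11 (31.4%) had most of them in a single cell, against 25.9% of such genes in the table.

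Summed over a family and averaged over rats, levels were 641 ± 285 CPM (the count scaled to a library of 1000000 counts) for ADAMTS, 637 ± 348 for ADAM, 451 ± 193 for MMP and 220 ± 355 for TIMP genes (SD, n = 3 rats), not per length. The TIMP sum was 0, 630 and 30.2 CPM in rats 1, 2 and 3, and without rat 2 cell 27 the mean was 30.1 CPM. Without rat 1 cell 5, which held 140 Adam17 counts, the ADAM mean was 395 CPM. Both cells were chosen after their values were seen. On the log2(CPM + 1) scale the mean level per gene was 1.22 ± 0.30 for ADAMTS, 0.86 ± 0.30 for ADAM, 0.74 ± 0.29 for MMP and 0.33 ± 0.29 for TIMP genes (SD, n = 3 rats), against 0.83 ± 0.21 for all genes.

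Cells held 0 to 19 members, with a median of 8.5. The median was 8 in rat 1, 4 in rat 2 and 12 in rat 3, in the same order as the median depth of the rats. The 3 cells without any member were cells 18, 21 and 23 of rat 2, with 1538, 5282 and 2141 counts. The cells with 19 members were rat 1 cell 4, rat 3 cell 33 and rat 3 cell 46, with 28339 to 37601 counts. Rat 1 cell 4, in which 10 of 18 macrophage markers reached 5 counts, was the highest cell for Adamts9 (13), Adamts13 (9), Mmp24 (9) and Adamts1 (6), with 5 Mmp2 counts, 0 Mmp9 counts and no TIMP count. In rat 1 cell 4, 1 of 9 fibroblast markers and 1 of 9 T and NK cell markers also reached 5 counts. Rat 2 cell 7, with 546 summed macrophage counts, held 1 count each of Adam11, Adamts9 and Mmp16 and no other member.

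Regulators and partners outside the families were read from a list of 56 genes, of which 55 had a row. In at least 10 cells, 17 of the 55 (30.9%) were found, against 20.7% of all genes. Bcan, a brain proteoglycan cut by ADAMTS enzymes, had counts in 31 cells, at most 28 in any. The proprotein convertases Pcsk5 (24 cells) and Furin (18), which can activate these enzymes, the endothelin-converting Ece1 (21), and the substrates Fn1 (18), Notch1 (17) and Vwf (16, as many as the tetraspanin Tspan5) followed. The genes that follow were added after their values were seen. Among inhibitors outside the TIMPs, Reck was found in 6 cells with at most 4 counts and A2m in 2. Plasminogen (Plg) was found in 14 cells with at most 4 counts, its activators Plau and Plat in 1 cell each and the receptor Plaur in 9. The iRhom genes needed by Adam17, Rhbdf1 and Rhbdf2, were found in 10 and 6 cells.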

How the data were processed

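Single DiI-labelled cells were cut by laser and sequenced with a SMART-Seq Single Cell Plus kit, per the labels' protocols. The authors deposited 1 table of whole-number read counts per gene, with 52 cell columns. The aligner, counter, genome build, annotation and any removal of duplicate reads were not given in the sources read. A deposited sample sheet names TruSeq Stranded mRNA as the assay, which differs from the kit in the labels. Nor was it given whether counting used strand, so overlapping genes, antisense genes and close copies are uncertain. No count was changed.

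A gene was detected in a cell at 1 or more counts. Shares were averaged over the cells of a rat and then over 3 rats, since cells of 1 animal are not replicates. CPM was the count over the column total, and log2 levels used CPM + 1. With 1 group there was no test between conditions. Differences between the members of 5 pairs of genes had an exact 2-sided sign-flip permutation test over rats, with Benjamini-Hochberg adjustment over the 5 pairs. Detection intervals are exact binomial (95%). Intervals, and the limit for a count of 0 (3 counts), cover counting error only. Thinning gave the expected detection at 10181 counts and left out 13 shallower cells. To be named with values were all TIMP genes and 16 enzymes set by their known roles. In each other family, the 6 members found in most cells and the 4 with the highest count were to be named too. Members outside this rule were named with their cell counts as well. Of the partner genes, the 8 found in most cells were to be named, and 1 of them is not reported here. The members and lists were chosen with earlier results of these data known. Of the 69 symbols, 68 matched the RefSeq gene table directly and Adam6a through a synonym.

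Python 3.11.15, numpy 2.4.6, pandas 2.3.3, scipy 1.17.1, matplotlib 3.10.9, R 4.3.3 and edgeR 4.0.16 (only for TMM library sizes) were used, and the scripts were tested on simulated data. No 2 columns were identical.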

Additional observations from a re-analysis of the deposited data

How the results depend on the processing

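Apart from leaving out rats, of 169 alternative values over 28 results, 134 stayed within the spread between rats or within 1.5 times the count. Of the rest, 32 moved further and 3 reversed. The spread over 3 rats was wide, so large shifts are among the 134. They include the MMP share at 2 counts (6.23%, against 11.4%) and the TIMP share at 5 counts (1.43%, against 4.60%). The MMP minus TIMP difference at 5 counts (0.657 points, against 6.76) is another. The cause was not tested except where the setting itself lowers a value by construction, as a stricter threshold does. The difference between Adam10 and Adam17 reversed to -2.56 points at 2 counts, -5.22 at 5 counts and -2.56 after thinning. At 5 counts the share per cell was 2.22% for ADAMTS, 2.09% for MMP, 1.25% for ADAM and 1.79% for all 69 members, and the differences were -0.180 points (ADAM minus TIMP), 0.789 (ADAMTS minus TIMP), -0.837 (ADAM minus MMP), 0.132 (ADAMTS minus MMP) and 0.969 (ADAMTS minus ADAM). At that threshold 22 members were found in at least 1 cell and 1 in at least 5 cells. At 2 counts the shares were 10.8% for ADAMTS, 7.87% for ADAM and 7.84% for all members, with 19 members in at least 5 cells. After thinning, 17 members were expected in at least 5 cells, of the 39 cells deep enough instead of 52. Thinned values, also that of Adam10 minus Adam17, thus reflect both the lower depth and the cells left out. Among members found in at least 3 cells, the share was 18.9% for MMP and 12.8% for TIMP, the log2 levels were 1.23 and 1.03, and the differences were -0.954 (ADAM minus MMP), -0.0831 (ADAMTS minus MMP) and 0.871 points (ADAMTS minus ADAM). That filter selects on detection itself, and Timp2 was the only TIMP gene it kept. At a threshold of 3 counts, 37 members reached it, against 22 at 5. Log2 levels with a pseudocount of 0.1 were 1.84 (ADAMTS), 1.31 (ADAM) and 1.11 (MMP), and with 10 they were 0.63, 0.44 and 0.38. Without the features found in 50 or more cells, summed CPM was 928 for ADAMTS and 649 for MMP.

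Leaving out each rat in turn, the difference between Mmp14 and Timp2 ranged from -17.1 to 3.75 points, reversing without rat 2, and the members in at least 5 cells from 15 (without rat 3) to 36. The family shares ranged from 16.6% to 22.0% (ADAMTS), 10.9% to 16.4% (ADAM), 8.61% to 14.1% (MMP) and 3.26% to 6.91% (TIMP). The values without single cells were chosen after seeing the data. No paired analysis was possible because 1 group leaves no groups to pair, so no replicate block could be fitted, while genes and families were compared within each rat throughout. The median cell had 15068 counts, and 1 count there is the least that can be seen. The 3 rats allow no exact p below 0.25.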
